A study of Arabidopsis thaliana with 64 samples.

Results

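Heat shock factors (HSFs), chaperones and cochaperones were followed in Arabidopsis thaliana seedlings as 51 loci out of 32833 loci counted. The loci were taken by locus tag from a list of 12 classes. The classes held 14 class A HSFs, 4 class B and C HSFs, the coactivator MBF1C, the disaggregase HSP101, 4 HSP90, 5 cytosolic, 2 chloroplast and 3 endoplasmic reticulum (ER) HSP70, 8 cytosolic and 4 organelle small HSPs, 2 FKBP cochaperones and 3 HOP cochaperones. Of these, 48 reached 1 CPM (the count relative to the TMM-scaled library) in 3 or more libraries and were tested, among 19587 loci in all. The other 3, HSFA7B, HSP21 and HSP22.0, had counts in 17, 12 and 17 of the 38 libraries and never exceeded 0.562, 0.499 and 1.06 CPM.

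HSFs are transcription factors that bind heat shock elements in promoters. In plants, HSFA1 proteins start the response, other class A factors carry it on, and class B factors mostly lack an activation domain. Their targets include chaperones, and whether HSFs control each listed locus was not tested. HSP70 and HSP90 fold proteins with ATP, and small HSPs hold unfolded proteins without it. HSP101 pulls aggregates apart and HOP proteins link HSP70 to HSP90. ELF3, a component of the evening complex of the circadian clock, is known as a repressor of growth genes whose activity falls with warmth. The lines and temperatures of the series address that response.

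RNA was taken from pools of seedlings of the Col-0 cultivar grown for 10 days in short days (8 h light) at 12, 22 or 27 °C, so these were lasting growth temperatures and not a heat shock. The 3 libraries at 12 °C came from 3 overexpressors, 1 library a line: StELF3-ox with potato ELF3, BdELF3-ox with Brachypodium ELF3 and ELF3-ox with Arabidopsis ELF3. The 15 libraries at 22 °C and the 20 at 27 °C covered these lines, the mutants elf3-1 and elf4-2, ELF4-ox, 2 crosses of a mutant with an overexpressor (elf4-2 X ELF3-ox; elf3-1 X ELF4-ox), and Col-0 without a transgene. They also covered lines with ELF3 under its own promoter: ELF3pro::BdELF3 (27 °C only) and ELF3pro::ELF3 with a glutamine repeat of length Q21 (lines #7 and #23), Q7 (lines #6 and, at 22 °C only, #17) or Q0 (lines #2 and #15). Col-0 had 1 library at 22 °C and 2 at 27 °C, and 14 lines had libraries at both temperatures. The promoter of the overexpressors and the genetic background of most transgenic lines are not given in the labels, nor is the harvest time. The labels call each library single and name no separate cultures, so repeated libraries may be technical. Since most groups of line and temperature hold 1 library, p-values measure the spread of libraries around the fit. That spread also holds differences between lines in their response to temperature. In bulk seedlings, fewer cells of a type and less RNA per cell cannot be told apart.

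Total gene counts per library were 4381010 to 25649275 with a median of 12076203. In elf3-1 the ELF3 tags (17.5 to 26.7 CPM) overlapped those of Col-0 (17.2 to 30.0 CPM), and such tags do not check this allele. In ELF3-ox they were 9.42 to 37.2 CPM, also around the Col-0 range, and whether the transgene carries the gene's own 3' end is not given in the labels. The ELF3pro::ELF3 lines lay above Col-0. Q0 #15 had 83.1 to 351.5 CPM, Q0 #2 135.2 to 153.1 CPM, Q7 #17 121.2 CPM and Q7 #6 52.2 to 54.2 CPM. Q21 #23 had 110.4 to 117.6 CPM and Q21 #7 37.0 to 61.0 CPM. ELF4 tags were 95.5 to 110.5 CPM in ELF4-ox, 116.4 to 121.1 CPM in elf3-1 X ELF4-ox and 32.0 to 38.1 CPM in elf4-2, against 59.8 to 67.5 CPM in Col-0. The 27 °C library of ELF3pro::BdELF3 and replicate 2 of BdELF3-ox at 27 °C stood apart. Their 9 root markers summed to 11.1 CPM in ELF3pro::BdELF3 and 13.4 CPM in BdELF3-ox, against 144.9 to 457.6 CPM in the other 36 libraries. Results are also given without these 2 libraries, called the root-poor pair, whose BdELF3-ox value stands first in what follows. The 6 leaf markers summed to 29580 to 36920 CPM at 12 °C, 14890 to 30670 CPM at 22 °C and 10240 to 23200 CPM at 27 °C, and 5 of the 6 were lower at 27 °C than at 22 °C in the fit. The part of organ proportions in the results was not tested.

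At 27 °C against 22 °C, averaged over lines, 22 of the 48 members tested (45.8%) were called by edgeR's quasi-likelihood test at an adjusted p under 0.05, 17 higher and 5 lower at 27 °C. Over all loci tested, 17.7% were called higher, 16.7% lower and 34.3% either way. At an unadjusted p under 0.05, 33 of the 48 members passed, against 43.7% of all loci. The median log2 change was 0.29 over the members and 0.0053 over all loci. The classes did not move as a block. The higher calls included HSP90-1, HSP70-4 and HOP3, known as heat-inducible members of their families. The 5 lower calls were HSFC1, the constitutive HSP90-2, HSP90-3 and HSP90-4 and the chloroplast cpHSC70-2. Without the 2 libraries low in root markers, 30 members were called, 23 higher and 7 lower (20.2%, 20.2% and 40.4% of all loci higher, lower and either way). All 22 calls were among these 30.

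**Figure D1:**
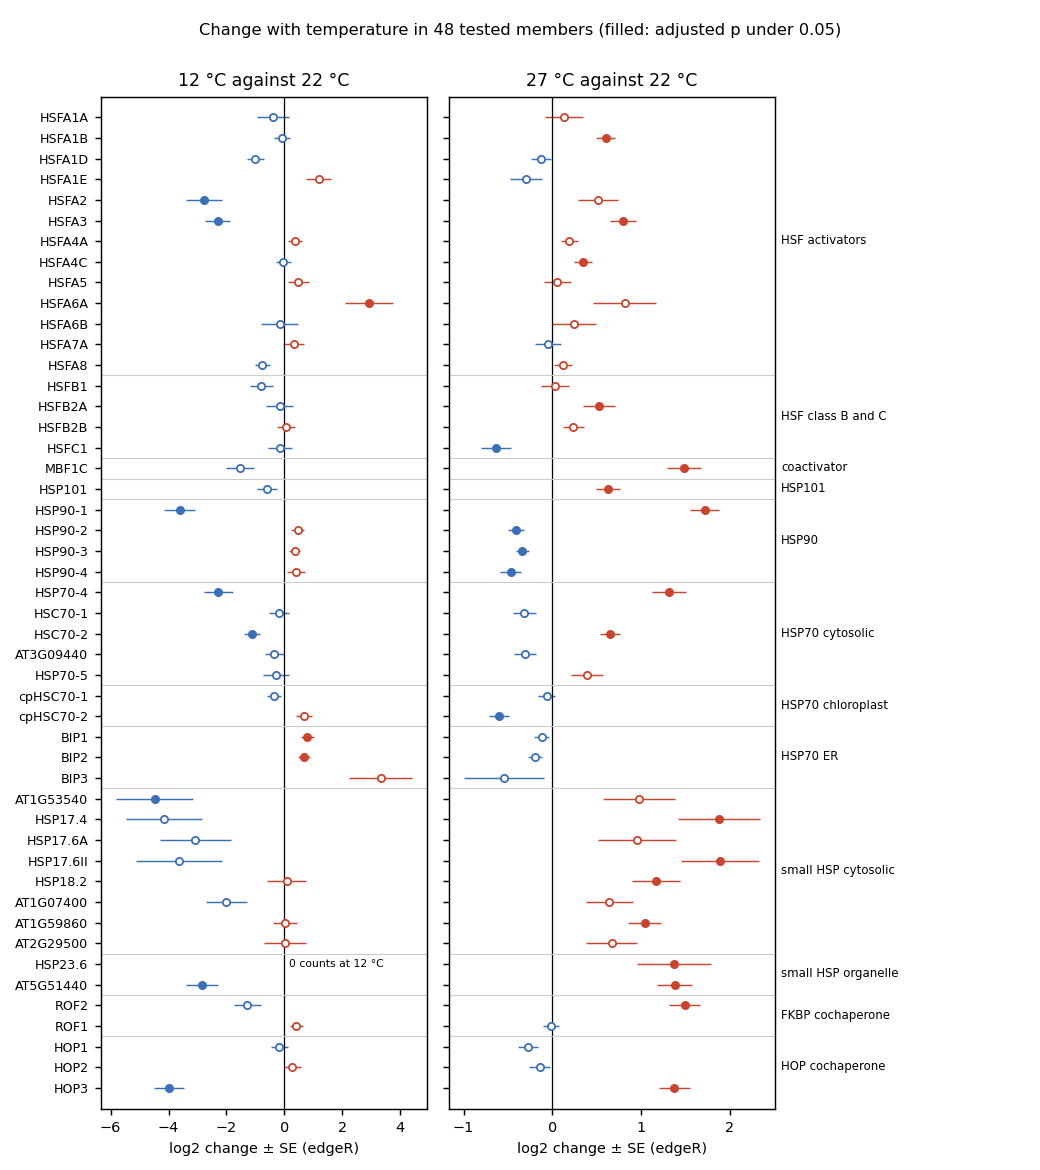
Log2 changes of the members in the fit, 12 °C against 22 °C in the left panel and 27 °C against 22 °C in the right one, by class, each panel with an axis of its own and bars of 1 standard error; filled points passed an adjusted p of 0.05. HSP90-1 stands at −3.62 at 12 °C and 1.72 at 27 °C, while HSP90-2 stands at 0.46 and −0.41.

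Of the 13 class A factors tested, 3 (23.1%) rose at 27 °C and none fell, and the share that rose is near the 17.7% of all loci. HSFA3, which acts downstream of the drought and heat factor DREB2A, measured 2.90 to 14.6 CPM (median 9.41) at 27 °C and 3.95 to 7.25 CPM (median 5.86) at 22 °C. It was above every 22 °C library in 16 of 20 libraries, a log2 change of 0.80 ± 0.15 (SE; edgeR adjusted p = 2.61e-04). HSFA1B, a starter of the response, measured 3.73 to 7.04 CPM (median 5.33) at 27 °C and 2.00 to 4.45 CPM (median 3.61) at 22 °C, 0.60 ± 0.11 (edgeR adjusted p = 2.30e-04). The smaller rise of HSFA4C was 0.34 ± 0.10 (edgeR adjusted p = 0.0134). The other HSFA1 genes were not called: HSFA1A, HSFA1D and HSFA1E had medians of 0.840, 3.33 and 0.963 CPM at 27 °C and of 0.859, 3.76 and 1.17 CPM at 22 °C. HSFA2, the factor that prolongs the response after heat, was near the limit of detection, with medians of 1.32 CPM at 27 °C and 0.746 CPM at 22 °C (0.52, edgeR adjusted p = 0.0807). HSFA6A had medians of 1.16 CPM at 27 °C and 0.694 CPM at 22 °C (0.81, edgeR adjusted p = 0.0806). Both were called without the 2 root-poor libraries, at 0.57 and 0.88. The class A factor with the most tags, HSFA7A, had medians of 27.4 CPM at 27 °C and 30.4 CPM at 22 °C, and its estimate was −0.05. HSFA4A, HSFA5, HSFA6B and HSFA8 were not called either, with estimates of 0.19, 0.05, 0.24 and 0.12.

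Of the 4 class B and C factors, HSFB2A, a repressor of the class B type, rose by 0.53 ± 0.18 (edgeR adjusted p = 0.0254), with medians of 12.7 CPM at 27 °C and 8.84 CPM at 22 °C. Its call was lost when any of 6 single libraries was left out, those of elf4-2, Q21 #7 (replicate 1 at 27 °C) and Q21 #23 at either temperature, with adjusted p-values between 0.0513 and 0.0709. HSFC1 fell to a median of 5.85 CPM at 27 °C, against 8.95 CPM at 22 °C (−0.63 ± 0.17, edgeR adjusted p = 0.00623). HSFB1, a class B factor with medians of 29.6 CPM at 27 °C and 28.4 CPM at 22 °C, had an estimate of 0.03, and HSFB2B one of 0.24, neither called.

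MBF1C, a transcriptional coactivator needed for heat tolerance, measured 5.07 to 49.9 CPM (median 34.5) at 27 °C and 9.02 to 18 CPM (median 10.2) at 22 °C. Of the 20 libraries at 27 °C, 17 lay above all of those at 22 °C (1.48 ± 0.19, edgeR adjusted p = 6.21e-06). HSP101, needed for acquired heat tolerance, measured 2.53 to 16.8 CPM (median 11.6) at 27 °C and 5.82 to 11.5 CPM (median 7.14) at 22 °C. The groups overlapped, with 11 libraries at 27 °C above all at 22 °C and the root-poor pair, at 2.53 and 2.91 CPM, below all (0.63 ± 0.14, edgeR adjusted p = 0.00155).

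The 4 cytosolic HSP90 genes split. HSP90-1, the heat-inducible isoform, measured 6.60 to 34.9 CPM (median 27.4) at 27 °C and 5.17 to 12.5 CPM (median 8.48) at 22 °C. The only libraries at 27 °C inside the range of 22 °C were the root-poor pair, at 6.88 and 6.60 CPM, and Col-0 replicate 2, at 12.3 CPM (1.72 ± 0.16, edgeR adjusted p = 1.85e-07). HSP90-2 fell to a median of 112.4 CPM at 27 °C, against 136.8 CPM at 22 °C (−0.41 ± 0.09, edgeR adjusted p = 9.75e-04). HSP90-3 changed by −0.34 ± 0.08 (edgeR adjusted p = 0.00196) and HSP90-4 by −0.47 ± 0.12 (edgeR adjusted p = 0.00446). Without the title prefix as a term, none of these 3 falls was called. The 3 lie close together on the chromosome and are near copies, with HSP90-3 next to HSP90-4 and 1 gene between HSP90-3 and HSP90-2, and reads that map to several places are not in the counts. Their separate levels are therefore uncertain.

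Since QuantSeq tags count transcripts at their 3' end and do not scale with length, tags of a family can be set side by side, within a limit. Reads that map to several places are missing from near copies, so the shares rest on reads of a single place. Reads not mapped to a single place were 2.64% to 2.85% of a library at 12 °C, 3.55% to 35.1% at 22 °C and 3.04% to 26.0% at 27 °C, and their part in the shares was not tested. HSP90-1 made up 0.122% (0.0525% to 0.123%) of the tags of the 4 HSP90 genes at 12 °C, 2.87% (1.76% to 5.01%) at 22 °C and 11.2% (4.11% to 16.6%) at 27 °C, as medians and ranges over libraries. The summed HSP90 level had medians of 541.3, 257.6 and 233.7 CPM at 12, 22 and 27 °C. The share of the inducible isoform was thus highest at 27 °C, while the median of the summed tags was highest at 12 °C. All 12 °C libraries have title prefix 184, which holds no 22 °C library, so prefix and temperature cannot be told apart in these values. Without the root-poor pair, HSP90-2 at 27 °C had a median of 153.4 CPM in prefix 184. Its medians were 108.4, 120.8 and 96.2 CPM in prefixes 177, 178 and 181.

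**Figure D2:**
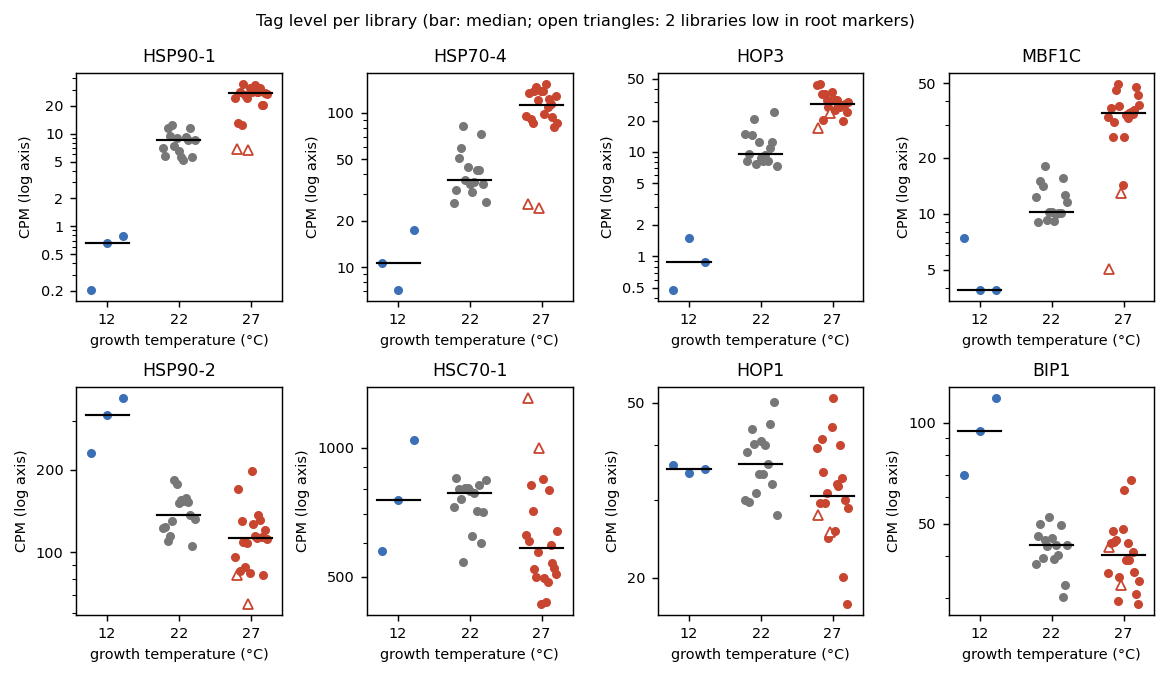
Level of leading members in CPM (log axis) in each library at 12, 22 and 27 °C; each point is a library and the bar is the median, with the 2 libraries low in root markers drawn with their own symbol. HSP90-1 had medians of 0.661, 8.48 and 27.4 CPM at 12, 22 and 27 °C.

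Of the 5 cytosolic HSP70 genes, 2 were called higher at 27 °C and none lower. HSP70-4, a heat-inducible HSP70, measured 24.0 to 154.4 CPM (median 111.7) at 27 °C and 26.0 to 81.6 CPM (median 36.7) at 22 °C. It was above all 22 °C libraries in 17 of 20, and the root-poor pair, at 25.7 and 24.0 CPM, was below all of them (1.31 ± 0.19, edgeR adjusted p = 2.65e-05). HSC70-2 measured 4.49 to 31.3 CPM (median 18.5) at 27 °C and 6.27 to 19.2 CPM (median 11.8) at 22 °C (0.65 ± 0.11, edgeR adjusted p = 1.08e-04). HSC70-1, the constitutive cytosolic HSP70 and the member with the most tags, measured 431.4 to 1308 CPM (median 581.9) at 27 °C and 540.0 to 848.8 CPM (median 784.8) at 22 °C. It was not called (−0.32 ± 0.13, edgeR adjusted p = 0.0582), but was called at −0.41 without the root-poor pair, which had 1308 and 995.0 CPM. HSC70-1 and HSC70-2 are adjacent near copies, and their separate levels are uncertain for the reason given for HSP90. AT3G09440 (−0.31, edgeR adjusted p = 0.0662) and HSP70-5 (0.39, edgeR adjusted p = 0.100) were not called. HSP70-4 made up 1.61% (0.916% to 1.77%) of the tags of the 5 genes at 12 °C, 4.53% (2.98% to 12.5%) at 22 °C and 14.6% (1.89% to 24.1%) at 27 °C.

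In the chloroplast, where HSP70 takes part in protein import and folding, cpHSC70-2 fell to a median of 61.3 CPM (38.8 to 119.0) at 27 °C, against 94.4 CPM (63.1 to 135.6) at 22 °C, a change of −0.60 ± 0.11 (edgeR adjusted p = 2.24e-04). Of the 20 libraries at 27 °C, 11 were below all at 22 °C. Its partner cpHSC70-1 had medians of 151.5 CPM at 27 °C and 152.2 CPM at 22 °C, with an estimate of −0.07. None of the 3 BiP genes, the HSP70s of the ER, was called at 27 °C: the estimates were −0.12 for BIP1, −0.20 for BIP2 and −0.55 for BIP3, the isoform induced by unfolded protein in the ER. BIP2 was called lower without the root-poor pair, at −0.21.

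All 8 cytosolic small HSP estimates were above 0 at 27 °C, with a median of 1.01, and 4 were called. HSP17.4 measured 1.99 to 50.8 CPM (median 12.9) at 27 °C and 0.948 to 24.1 CPM (median 3.23) at 22 °C. The groups overlapped widely, with 4 libraries at 27 °C above all at 22 °C (1.88 ± 0.46, edgeR adjusted p = 0.00326). HSP17.6II rose by 1.89 ± 0.44 (edgeR adjusted p = 0.00222) at low levels, with medians of 2.41 CPM at 27 °C and 0.713 CPM at 22 °C. HSP18.2 had medians of 2.68 CPM at 27 °C and 1.34 CPM at 22 °C (1.16 ± 0.27, edgeR adjusted p = 0.00219). AT1G59860 had the best separated groups, with 1.06 to 8.88 CPM (median 4.96) at 27 °C and 0.460 to 3.25 CPM (median 2.05) at 22 °C, 15 of the 20 above all at 22 °C (1.04 ± 0.18, edgeR adjusted p = 1.80e-04). AT1G53540 (0.97), HSP17.6A (0.95), AT1G07400 (0.64) and AT2G29500 (0.67) had edgeR adjusted p-values of 0.0670, 0.0978, 0.0669 and 0.0811. Without the root-poor pair all 8 were called. HSP17.6A and HSP17.6II lie next to each other and are alike in sequence, so their counts may be divided between them uncertainly.

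These genes varied between libraries at a single temperature. Over the 15 libraries at 22 °C the standard deviation of log2(CPM + 0.5) had a median of 0.806 over the 8 genes (0.451 to 1.47), against 0.299 over all loci tested. The highest 22 °C library was 27.7-fold above the lowest for AT1G53540, compared with 2.42-fold for HSP90-1. Summed over the 8 genes, elf4-2 had 151.2 CPM at 27 °C and 27.0 CPM at 22 °C, and Q21 #7 had 77.6 and 87.5 CPM at 27 °C and 14.3 CPM at 22 °C. Col-0 had 21.7 and 25.7 CPM at 27 °C and 19.4 CPM at 22 °C. In elf4-2 X ELF3-ox the order was reversed, at 46.6 CPM at 27 °C and 90.01 CPM at 22 °C. The difference between temperatures thus varied widely among lines, with 1 library in most groups.

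**Figure D3:**
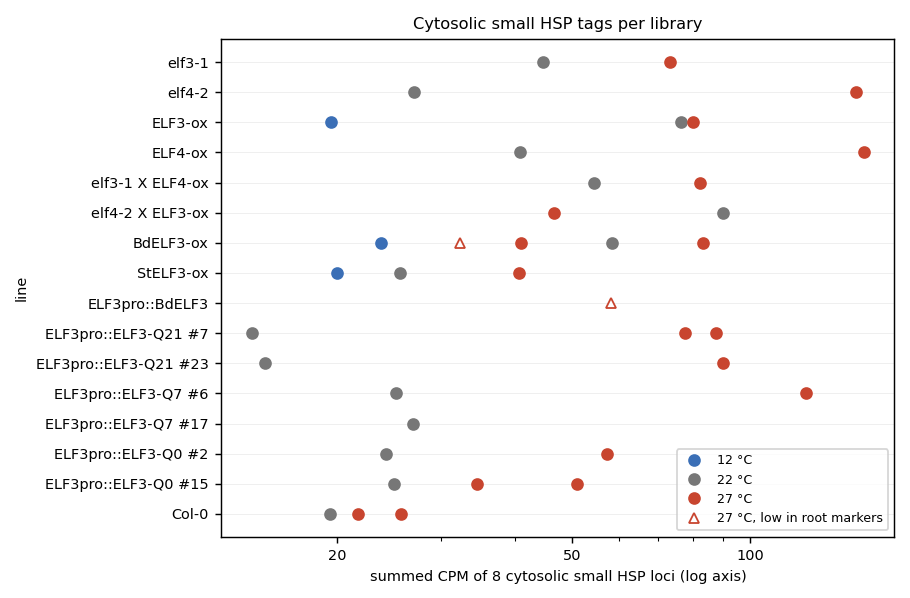
Summed level of the 8 cytosolic small HSP genes in CPM (log axis) for each library, by line, with temperature shown by colour and open triangles for the root-poor pair. At 27 °C, elf4-2 and ELF4-ox reach 151.2 and 155.9 CPM, while Col-0 stays between 19.4 and 25.7 CPM at 22 and 27 °C.

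Of the 4 small HSPs of organelles, AT5G51440 and HSP23.6 passed the filter and were called higher at 27 °C. HSP23.6 reached 1 CPM in 3 libraries only with its 27 °C libraries counted, so its call is not independent of the filter. AT5G51440, a mitochondrial small HSP, measured 1.99 to 24.3 CPM (median 13.9) at 27 °C and 3.45 to 10.8 CPM (median 4.87) at 22 °C. All 18 libraries at 27 °C other than the root-poor pair (1.99 and 2.11 CPM) were above every library at 22 °C, and that pair was below every one (1.38 ± 0.20, edgeR adjusted p = 2.36e-05). HSP23.6, also mitochondrial, had medians of 1.25 CPM at 27 °C and 0.401 CPM at 22 °C (1.37 ± 0.42, edgeR adjusted p = 0.0152). The ER-targeted HSP22.0 and the chloroplast HSP21 had medians of 0.153 and 0 CPM at 27 °C and 0 CPM each at 22 °C, too low to compare at this depth.

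Among cochaperones, the peptidyl-prolyl isomerase ROF2 measured 1.06 to 9.33 CPM (median 5.2) at 27 °C and 1.2 to 3.64 CPM (median 1.63) at 22 °C (1.49 ± 0.18, edgeR adjusted p = 2.44e-06). Its relative ROF1 had medians of 15.6 CPM at 27 °C and 16.6 CPM at 22 °C and an estimate of −0.01. HOP3, the stress-inducible HOP, measured 17.0 to 45.2 CPM (median 28.6) at 27 °C and 7.42 to 24.1 CPM (median 9.59) at 22 °C (1.38 ± 0.17, edgeR adjusted p = 5.27e-06). HOP1 (−0.27, edgeR adjusted p = 0.0731) and HOP2 (−0.14, edgeR adjusted p = 0.364) were not called. HOP3 made up 1.94% (1.06% to 3.44%) of HOP tags at 12 °C, 18% (14.1% to 29.6%) at 22 °C and 42.1% (33.7% to 55.7%) at 27 °C. These 3 ranges did not overlap, the root-poor pair included.

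**Figure D4:**
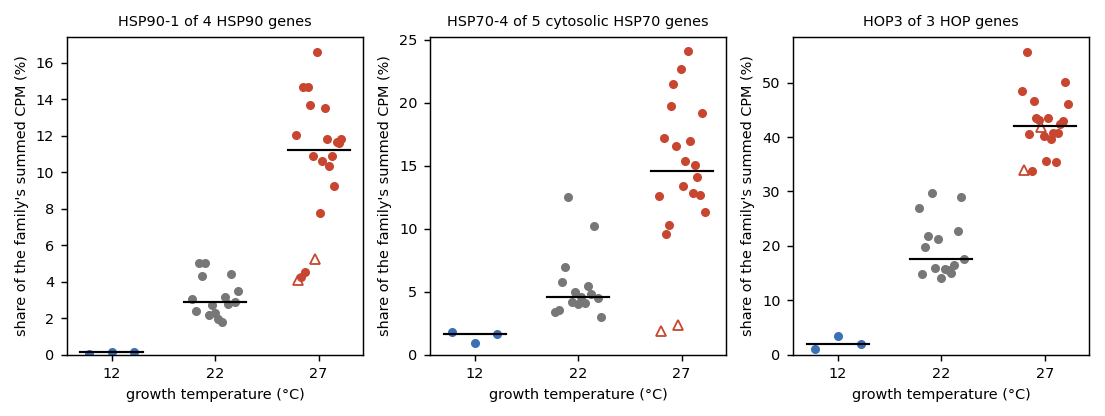
Share (percent of the family's tags) taken by HSP90-1 among 4 HSP90 genes, HSP70-4 among 5 cytosolic HSP70 genes and HOP3 among 3 HOP genes, per library at 12, 22 and 27 °C. The HOP3 shares at 27 °C, from 33.7%, all lie above those at 22 °C, up to 29.6%.

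In the 14 lines with libraries at both temperatures, 9 of 48 members were higher at 27 °C in every line (HSFA1B, HSFA3, MBF1C, HSP90-1, HSP70-4, HSC70-2, AT5G51440, ROF2 and HOP3), against 3.76% of all loci. None was lower in every line, against 3.49% of all loci. The size of the within-line difference varied. On the log2(CPM + 0.5) scale, HSP90-1 (BdELF3-ox included with its root-poor replicate) ranged between 0.82 in elf4-2 X ELF3-ox and 2.29 in Q21 #23, and was 1.55 in elf3-1 and 1.62 in Col-0. HSP70-4 ranged between 0.15 and 2.14 in the same 2 lines, and was 1.42 in elf3-1 and 1.47 in Col-0. HOP3 ranged between 0.0050 in ELF4-ox and 2.11 in Q0 #15, and HSP17.4 between −1.62 in elf4-2 X ELF3-ox and 4.05 in ELF4-ox. Most of these differences rest on 1 library at each temperature.

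**Figure D5:**
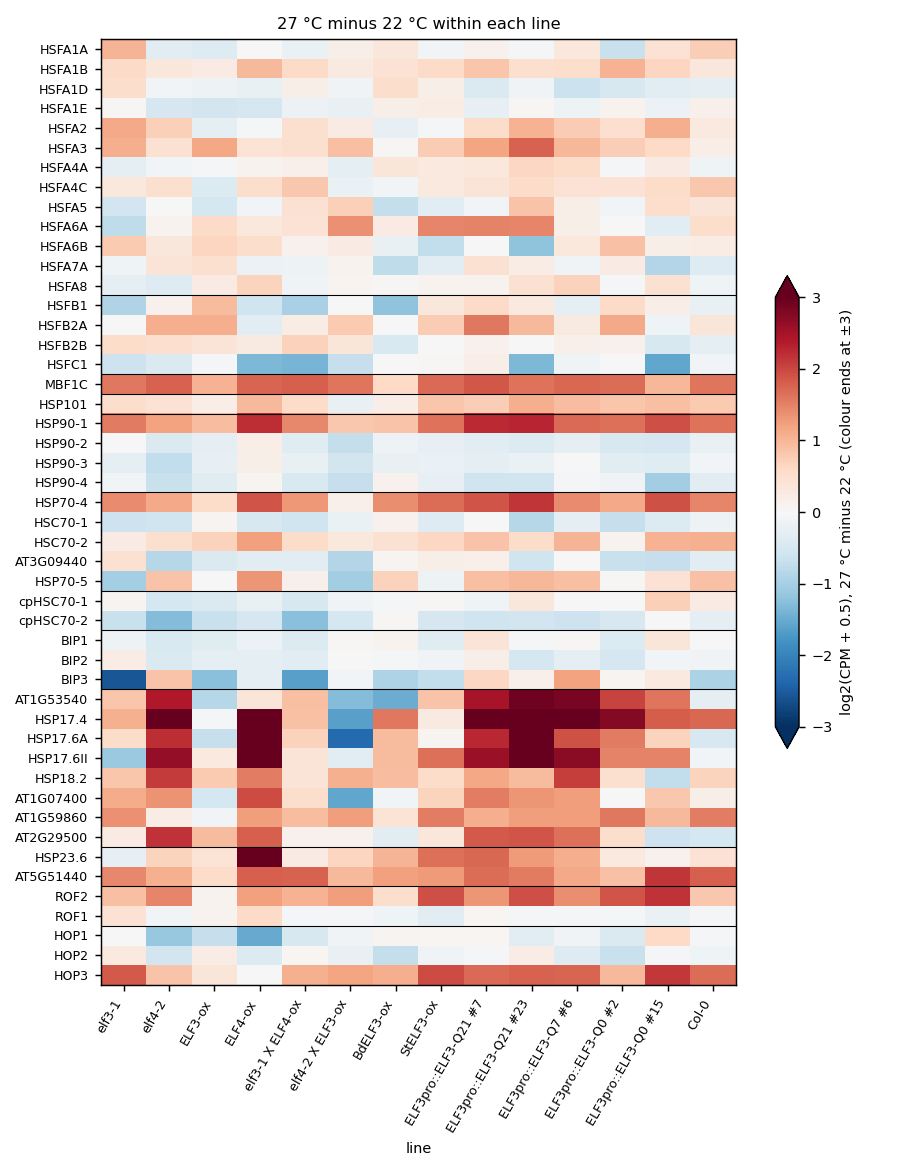
Difference between 27 °C and 22 °C on the log2(CPM + 0.5) scale for members (rows, by class) in each of the 14 lines with both temperatures (columns, Col-0 at the right); colour gives sign and size. HSP90-1 is above 0 in every column, from 0.82 to 2.29, and HSP17.4 is −1.62 in elf4-2 X ELF3-ox.

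The number prefix of the sample titles was a term of the fit as a possible batch. Without the root-poor pair, HSP90-1 at 27 °C was 20.3 to 34.9 CPM in the 7 libraries of prefix 177, 28.0 to 33.9 CPM in 4 of prefix 178, 24.2 to 28.4 CPM in 3 of prefix 181 and 12.3 to 28.6 CPM in 4 of prefix 184. These HSP90-1 ranges overlap, and lines differ between prefixes. HSP90-2, called lower at 27 °C, was 130 to 197.7 CPM in prefix 184 at that temperature. That lay above the 82.9 to 120.5 CPM of prefix 177 and the 85.8 to 111.8 CPM of prefix 181, and overlapped the 112.9 to 131.1 CPM of prefix 178. For HSFC1, also called lower, the ranges of all 4 prefixes overlapped, with 5.80 to 9.87 CPM in prefix 184. Each of the 4 libraries of prefix 184 has a partner of the same line and temperature in another prefix, leaving out the root-poor one. HSP90-1 had 12.3 CPM in prefix 184 and 28.4 CPM in the partner for Col-0, 13.1 and 24.2 CPM for BdELF3-ox, 28.6 and 31.1 CPM for Q0 #15, and 28.6 and 28.0 CPM for Q21 #7. The level was thus lower in prefix 184 for Col-0 and BdELF3-ox, and close to the partner for the Q0 and Q21 lines. In lines whose 2 temperatures share a prefix, 10 members were called, against 7.76% of all loci: MBF1C, HSP90-1, HSP70-4, HSC70-2, AT5G51440, ROF2 and HOP3 higher and HSP90-2, HSP90-3 and HSP90-4 lower.

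At 12 °C against 22 °C, 11 of 48 members were called, 3 higher and 8 lower, against 2.63% higher, 3.45% lower and 6.09% either way over all loci. The 3 libraries at 12 °C share prefix 184, which holds no library at 22 °C, so no comparison within a prefix was possible and the fit joins the 2 temperatures through the 27 °C libraries of that prefix. The comparison also shares its 22 °C libraries with that at 27 °C. Without the prefix term 24 members were called, 9 higher and 15 lower, against 27.9% of all loci either way in that fit, and with the 3 lines grown at 12 °C alone neither any of the 46 members tested nor any other locus was called. At an unadjusted p under 0.05, 23 of the 48 members passed, against 21.7% of all loci. All 3 libraries at 12 °C lay above every 22 °C library for 5 of the 48 members, against 12.1% of all loci. They lay below every one for 10 members, against 11.7% of all loci. The share above was thus not higher than the background, and such separation of a single member is common among all loci. Leaving out the ELF3-ox library at 12 °C left 4 calls, 1 higher and 3 lower, against 1.74% of all loci.

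HSP90-1 measured 0.203, 0.661 and 0.783 CPM at 12 °C in BdELF3-ox, in ELF3-ox and in StELF3-ox, 19 counts in all, far below the 5.17 to 12.5 CPM at 22 °C (−3.62 ± 0.53, edgeR adjusted p = 5.85e-04). HOP3 measured 0.474, 1.49 and 0.88 CPM at 12 °C in these lines, all below the lowest 22 °C library at 7.42 CPM (−4.00 ± 0.52, edgeR adjusted p = 2.65e-04). HSP70-4 measured 10.7, 7.10 and 17.3 CPM at 12 °C, all below the lowest 22 °C library at 26.0 CPM (−2.28 ± 0.50, edgeR adjusted p = 0.00958). Within each line the drop at 12 °C had the same sign: on the log2(CPM + 0.5) scale HSP90-1 differed by −3.42 in BdELF3-ox, −3.49 in ELF3-ox and −2.81 in StELF3-ox, and HSP70-4 by −1.25, −3.43 and −0.60 in that order.

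HSFA3 fell to 0.587 to 1.29 CPM at 12 °C, against 3.95 to 7.25 CPM at 22 °C (−2.31 ± 0.42, edgeR adjusted p = 0.00316). HSFA2 averaged 0.303 CPM at 12 °C on 11 counts, and 0.993 CPM at 22 °C (−2.78 ± 0.62, edgeR adjusted p = 0.0113). The mitochondrial AT5G51440 measured 0.826 to 1.69 CPM at 12 °C (−2.85 ± 0.55, edgeR adjusted p = 0.00433), and HSC70-2 4.05 to 6.90 CPM at 12 °C (−1.11 ± 0.28, edgeR adjusted p = 0.0231). Of the cytosolic small HSPs only AT1G53540 was called, at 0.203 to 0.391 CPM at 12 °C and 1.34 to 37.2 CPM at 22 °C (−4.48 ± 1.33, edgeR adjusted p = 0.0476). HSP17.4 had an estimate of −4.15 (edgeR adjusted p = 0.0632). HSP18.2, AT1G59860 and AT2G29500 had estimates of 0.08, 0.03 and 0.01, and their summed counts at 12 °C were 73, 179 and 448. For AT1G59860 the 3 libraries at 12 °C, at 4.21 to 5.55 CPM, all lay above the 22 °C libraries, at 0.460 to 3.25 CPM. Within prefix 184 they lay below the 4 libraries at 27 °C, at 5.60 to 8.88 CPM. Without the prefix term its estimate was 0.96 (edgeR adjusted p = 0.0567). HSP23.6 had no count in the 3 libraries at 12 °C. A floor of 3 counts over them is 0.0809 CPM, at least 6.12-fold below the mean of 0.495 CPM over all 22 °C libraries. In the lines grown at 12 °C, the 22 °C levels were 0.119 CPM in BdELF3-ox, 0.910 CPM in ELF3-ox and 0.100 CPM in StELF3-ox. These rest on 1, 18 and 1 counts, so that fold cannot be shown within BdELF3-ox or StELF3-ox. HSP23.6 was not called at 12 °C. MBF1C, at 3.88 to 7.38 CPM at 12 °C, lay below every 22 °C library without being called (−1.54 ± 0.49, edgeR adjusted p = 0.0645). It was called without the root-poor pair, at −1.48, where 16 members were called (4 higher and 12 lower, against 4.67% and 6.26% of all loci, and 10.9% either way; 26.1% of all loci had an unadjusted p under 0.05).

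The 3 members called higher at 12 °C were BIP1, BIP2 and HSFA6A. None of them kept its call without the StELF3-ox library at 12 °C. All 9 calls were then lower, against 4.06% of all loci called either way. Without the BdELF3-ox or the ELF3-ox library 1 member was called higher (2.36% and 1.74% of all loci called either way). BIP1 measured 70.0, 94.2 and 118.7 CPM at 12 °C in the BdELF3-ox, the ELF3-ox and the StELF3-ox library, above the 30.4 to 52.5 CPM at 22 °C (0.80 ± 0.21, edgeR adjusted p = 0.0269). BIP2, at 34.5 to 56.1 CPM at 12 °C and 18.8 to 42.3 CPM at 22 °C, was at the edge of the threshold (0.67 ± 0.20, edgeR adjusted p = 0.050). BIP3 measured 30.5 CPM at 12 °C in BdELF3-ox and 2.40 and 3.03 CPM in ELF3-ox and StELF3-ox, against 0.343 to 3.41 CPM at 22 °C, and was not called (3.32 ± 1.09, edgeR adjusted p = 0.0704). HSFA6A, a class A factor linked to salt and drought responses, measured 3.66, 2.07 and 3.72 CPM at 12 °C in BdELF3-ox, in ELF3-ox and in StELF3-ox and averaged 0.814 CPM at 22 °C (2.92 ± 0.82, edgeR adjusted p = 0.0369).

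The constitutive HSP90-2 measured 229.5, 316.8 and 366.2 CPM at 12 °C in the BdELF3-ox, the ELF3-ox and the StELF3-ox library, all above the highest 22 °C library at 183.8 CPM, but its fitted change was 0.46 ± 0.22 (edgeR adjusted p = 0.237). Without the prefix term that change was 1.16, and it was called. HSP90-3 lay above every 22 °C library too, at 113.9 to 195.8 CPM at 12 °C. Within prefix 184, HSP90-2, HSP90-3, HSP90-4, cpHSC70-2, BIP1, BIP2 and BIP3 were higher in all 3 libraries at 12 °C than in all 4 at 27 °C. Those lower in all 3 included HSP90-1, HSP70-4, HOP3, MBF1C, HSP101, HSFA2, HSFA3 and ROF2. In this prefix 11 members lay wholly above and 20 wholly below their 27 °C levels, against 19.7% and 21.3% of all loci, so the share above was near the background.

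No member was called by edgeR in any of the 7 line comparisons, or by DESeq2. In elf3-1 against Col-0 over temperatures, 137 loci (0.699%; 0.403% higher and 0.296% lower) were called, none of them a member, while 7 of the 48 members had an unadjusted p under 0.05, against 13.9% of all loci, which is near the share of the members. HSP17.6A measured 15.2 and 22.6 CPM in elf3-1 and 2.51, 1.60 and 1.71 CPM in Col-0 (3.68 ± 1.07, edgeR adjusted p = 0.113). That value passed, at an adjusted p of 0.0448, without the root-poor pair, neither of which is elf3-1 or Col-0. HSFB2A averaged 18.7 CPM in the elf3-1 libraries and 9.39 CPM in those of Col-0 (1.43 ± 0.44, edgeR adjusted p = 0.135). HSP90-1 averaged 23.3 CPM in the elf3-1 libraries and 15.5 CPM in those of Col-0 (1.03 ± 0.42, edgeR adjusted p = 0.272).

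In elf4-2 against Col-0, where 0.0817% of all loci were called (0.0511% lower) and 4 members and 6.09% of all loci had an unadjusted p under 0.05, HSP18.2 averaged 5.09 CPM in elf4-2 and 0.582 CPM in Col-0 (3.06 ± 0.79, edgeR adjusted p = 0.266). These lines share no title prefix, so line and prefix are parted only through other lines. In ELF3-ox and ELF4-ox against Col-0 (0.0306% and 0.00511% of all loci called) 7 and 6 members had an unadjusted p under 0.05, against 3.66% and 3.32% of all loci. All 8 cytosolic small HSP estimates were above 0 in each of these 4 comparisons, with medians of 1.68 in elf3-1, 1.75 in elf4-2, 2.35 in ELF3-ox and 2.49 in ELF4-ox. The 4 comparisons share the 3 Col-0 libraries, which at 27 °C had the lowest 2 summed small HSP levels of the 20 libraries.

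BdELF3-ox and StELF3-ox were set against ELF3-ox, and 0% of loci were called in either. HSP90-1 had an estimate of −1.33 ± 0.45 in BdELF3-ox (edgeR adjusted p = 1), 1 of whose 5 libraries is root-poor, with 4 members and 2.43% of all loci at an unadjusted p under 0.05. StELF3-ox had 2 such members, against 1.61% of all loci. In the Q21 lines against the Q0 lines, 0.0153% of all loci were called (0.0102% higher). An unadjusted p under 0.05 was reached by 3 members and 3.37% of all loci. HSFA8 averaged 2.77 CPM in Q21 and 4.18 CPM in Q0 and was not called (−0.60 ± 0.19). These lines also differed in ELF3 tags, as given above. The F-test over all 16 lines called no member, against 3.69% of all loci, with 7 members and 16.9% of all loci at an unadjusted p under 0.05. DESeq2 called 5 of the 48 members there, against 13% of all loci, so the share of the members was not above that of all loci. The smallest adjusted p-values of that edgeR test were 0.0610 for AT3G09440 and 0.0628 for BIP2. Both passed without the root-poor pair, at 0.0256 and 0.0309, where 7.23% of all loci were called.

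Whether the 27 °C difference itself was another in lines labelled elf3-1 was tested as an interaction, and no member or other locus was called by edgeR, nor any member by DESeq2, while 2 members and 1.26% of all loci had an unadjusted p under 0.05. The interaction was 0.16 ± 0.55 for HSP90-1, −0.48 ± 0.63 for HSP70-4, 0.55 ± 0.57 for HOP3 and 0.10 ± 0.64 for MBF1C. These errors are as large as many changes of this size, so the responses are not shown to be alike.

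Among other folding and heat-response genes listed by locus and not among the 51, 9 of 20 tested cytosolic and heat-response genes were higher and 2 lower at 27 °C, against 17.7% and 16.7% of all loci. GOLS1, a galactinol synthase known as an HSF target, averaged 29.8 ± 13.4 CPM at 27 °C and 6.90 ± 3.07 CPM at 22 °C (SD; n = 20 and 15), above all 22 °C libraries in 19 of 20 (2.03 ± 0.13, edgeR adjusted p = 1.55e-09). HSP70T-2, a truncated HSP70, averaged 32.4 CPM at 27 °C and 14.8 CPM at 22 °C (1.14 ± 0.13, edgeR adjusted p = 1.30e-06). HSA32, needed to keep acquired heat tolerance, changed by 0.95 ± 0.17 (edgeR adjusted p = 1.94e-04). At 12 °C, 1 of the 20, DREB2C, was called higher, against 2.63% of all loci.

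Of 15 tested ER folding genes, 1 was higher and 5 lower at 27 °C, against 17.7% and 16.7% of all loci. CRT1A, a calreticulin, averaged 69.4 CPM at 27 °C and 97.8 CPM at 22 °C and lay below all 22 °C libraries in 18 of 20 (−0.44 ± 0.07, edgeR adjusted p = 8.27e-05). Of 12 tested organelle folding genes, 4 were lower and none higher at 27 °C, set against the same shares. Among them the mitochondrial HSP60-2 averaged 37.9 CPM at 27 °C and 61.7 CPM at 22 °C (−0.78 ± 0.14, edgeR adjusted p = 1.57e-04), and the mitochondrial MTHSC70-1 changed by −0.40 ± 0.08 (edgeR adjusted p = 8.08e-04).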

How the data were processed

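As deposited, each RNA file holds whole-number read counts by TAIR10 locus, from QuantSeq 3' FWD libraries (per the labels' protocols) aligned with STAR (per the submitters' processing notes). Counting tool and strand setting: not given in the sources used here. Reads not mapped to a single place (2.64% to 35.1% of a library's reads) and reads in no gene (2.11% to 4.90%) were left out of library sizes and tests. ChIP peak lists were not used here. A TAIR10.1 gene table matched all 51 members and gave symbols and neighbours.

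Counts of the 38 libraries were fitted at once in R 4.3.3 with edgeR 4.0.16 (limma 3.58.1): TMM factors, loci reaching 1 CPM in 3 or more libraries, quasi-likelihood tests, and Benjamini-Hochberg adjustment over all 19587 loci at 0.05. Terms were the 16 lines, temperature against 22 °C and the 4 title prefixes, leaving 17 residual degrees of freedom. The common dispersion was 0.0551. Of 33 combinations of line and temperature, 29 had a single library, 3 had 2 and 1 had 3, so all libraries shared an estimate of the spread. Repeated libraries correlated in pairs at 0.885 to 0.967, the lowest 2 values involving replicate 2 of BdELF3-ox at 27 °C. The ± values of log2 changes are standard errors, taken as the absolute change over the square root of the test's F statistic. Those of CPM are standard deviations over libraries, and both include the spread between libraries. The floor covers counting error only. Steps were tested on simulated data. DESeq2 1.42.0, other filters, other scaling, no prefix term and left-out libraries were tried as alternatives.

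Members, lists and tests were chosen with earlier results of these data known. The text names all 51 members, ELF3, ELF4, and, from the 3 lists of other folding genes, the 3 of smallest p in each direction at 27 °C. DREB2C and the ER genes named at 12 °C were chosen after their values were seen.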

Additional observations from a re-analysis of the deposited data

How the results depend on the processing

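The 22 calls at 27 °C kept their direction and call under DESeq2, DESeq2 size factors in edgeR, no filter on low counts and leaving out the root-poor pair. With at least 5 CPM required, the 21 still tested kept theirs. Without the prefix term 23 members were called, 21 higher and 2 lower, against 31% of all loci either way. HSP90-2, HSP90-3 and HSP90-4 lost their call. Leaving out each of the 38 libraries gave 21 to 30 calls, 30 of them without BdELF3-ox 27 °C replicate 2. The share of all loci was 34.3% in the full fit and is not given here for these fits. Fits on fewer libraries called 10 members in lines whose temperatures share a prefix, 1 with Col-0 alone (HOP3, adjusted p = 0.0429), and 0 within prefix 177 and within prefix 181, where no locus of any kind was called on 2 and 3 residual degrees of freedom. Within prefix 177 the estimate of HSP17.4 was −0.0404, the only called member whose sign turned. The 11 calls at 12 °C became 17 with DESeq2 (8.56% of all loci), 24 without the prefix term (27.9%) and 0 in the 3 lines grown at 12 °C alone (0%). With 1 of the 3 libraries left out, 4 were called without ELF3-ox, 1 higher and 3 lower (1.74% of all loci). Without BdELF3-ox 8 were called, 1 higher and 7 lower (2.36%). Without StELF3-ox 9 were called, all lower (4.06%). BIP2 lost its call without the filter. The cause of these shifts was not tested.

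Line comparisons gave 0 members called under all but a few settings. Leaving out the root-poor pair gave 1 in elf3-1 (HSP17.6A) and 2 over all lines, against 2.79% and 7.23% of all loci. Dropping the prefix term gave 1 in elf4-2 (HSP18.2, 2.91, edgeR adjusted p = 0.0336) and 4 over all lines, against 0.24% and 7.47% of all loci. The test over all lines gave 5 with DESeq2 (13% of all loci) and 1 with at least 5 CPM (BIP2; 4.37% of all loci). It gave 0 to 6 when 1 library was left out, 6 of them without BdELF3-ox 27 °C replicate 2. The share of all loci was 3.69% in the full fit and is not given here for these fits. No paired analysis was possible because the labels give no replicate numbers, and those used here follow sample order only; line is a term of the fit, which compares temperatures within lines. Heat shock elements in promoters and ELF3 binding sites near members, with their 3 alternatives, were not run. Members under about 1 CPM (HSFA7B, HSP21, HSP22.0 and, at 12 °C, HSP17.6II with 4 counts) are limited by depth.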

Other observations

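At 12 °C against 22 °C, 4 of the 15 ER folding genes tested were called higher and 1 lower, against 2.63% and 3.45% of all loci, in the comparison where BIP1 and BIP2 rose. The calreticulin CRT1B averaged 95.8 ± 11.8 CPM in the 3 libraries at 12 °C and 32.6 ± 6.28 CPM in the 15 at 22 °C (SD), with all 3 above every 22 °C library (log2 change 1.36 ± 0.19 SE, edgeR adjusted p = 4.17e-04). The calnexin CNX1 averaged 231.8 CPM at 12 °C and 116.3 CPM at 22 °C (0.74 ± 0.17, edgeR adjusted p = 0.0149). The ER cochaperone P58IPK averaged 115.3 CPM at 12 °C and 84.8 CPM at 22 °C (0.91 ± 0.27, edgeR adjusted p = 0.0463). CRT3, a calreticulin known for the folding of cell-surface receptors, fell to 59.9 CPM at 12 °C, against 78.8 CPM at 22 °C (−0.92 ± 0.21, edgeR adjusted p = 0.0134). The limits of the 12 °C comparison given above hold for these genes.

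In the root-poor pair of 27 °C libraries, HOP3 stood at 17.0 and 24 CPM, the first being the lowest of the 20 libraries at 27 °C. AT1G53540 stood at 21.7 and 23.2 CPM, above the 27 °C median of 9.82 CPM. HSFA7A stood at 11.2 and 5.28 CPM, below the 16.5 CPM of the lowest 22 °C library, as it did in 4 of the 18 other libraries at 27 °C. HSC70-1 stood at 1308 and 995.0 CPM, above the highest 22 °C library at 848.8 CPM.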
